A study of Mus musculus with 18 samples.

Results

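The genes described here are nuclear-encoded subunits of the mitochondrial respiratory chain and enzymes of the tricarboxylic acid (TCA) cycle. They were listed by name, with earlier results of these data known: 12 subunits of complex I, 4 of complex II, 4 of complex III, 6 of complex IV and 7 TCA cycle enzymes. Where several probe sets read a gene, the one with the greatest average level on the 18 arrays stood for it, which gave values for 32 of the 33 genes, of 18193 genes in all. Cox7b had no probe set in the annotation used and was not analysed here, and no complex V gene is among the 33.

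RNA of mouse embryonic stem cells was hybridised to Affymetrix arrays, 1 array per sample, and all levels below are log2 values. All samples were labelled as male EBRTcH3 cells of the 129SV background, grown with serum and LIF unless 2i is named. LY294002, an inhibitor of phosphoinositide 3-kinase (PI3K), was given to cells overexpressing wild-type c-Myc (untreated, day 2 and day 5), to cells overexpressing c-Myc T58A (the same times), to parental cells in 2i, a medium with a pair of kinase inhibitors (untreated and day 5), and to parental cells in serum. The serum parental cells came as replicate 1 (untreated and day 5) and replicate 2 (untreated, day 2 and day 5). Doxycycline (Dox), which per the study design ablates Max, was given to Max-null cells overexpressing p110 alpha, the catalytic PI3K subunit encoded by Pik3ca (untreated and Dox, with no day in the labels), and to plain Max-null cells (untreated, day 4 and day 6). One description, that of T58A cells without treatment, names N-Myc for the treated partners, and the labels state neither clones nor separate cultures.

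The respiratory chain passes electrons from NADH through complex I, and from succinate through complex II, to ubiquinone, then through complex III and cytochrome c to oxygen at complex IV. The TCA cycle oxidises acetyl-CoA in the mitochondrial matrix and supplies the NADH and succinate. Mouse embryonic stem cells in the naive state are known to use both glycolysis and respiration, and Myc, with its partner Max, is known to bind many promoters of mitochondrial genes.

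The 4 stretches of promoter are printed to show, in genes called at day 5 of LY294002, each of 4 motifs of factor classes linked to respiratory genes; they were picked after the values were seen, and only Fh1 is among the 4 largest changes at that day. The call of one of them, Uqcrc1, was lost in 6 of 11 alternatives. They come from RefSeq on GRCm38.p6 and run from 250 bases before to 50 bases after a transcription start, 5′ to 3′ on the strand of the gene, with motif matches on either strand in capitals. Fh1, which encodes fumarate hydratase, has the window chr1:175625586-175625885 on the minus strand, with 2 CCAAT boxes read as ATTGG. Uqcrc1, a core protein of complex III, has chr9:108936398-108936697 on the plus strand, with 2 copies of the NRF1 core, GCGC and TGCGC with any 1 base between them. Ndufb8, an accessory subunit in the membrane arm of complex I, has chr19:44555393-44555692 on the minus strand with 1 YY1 core, AAGATGGC. Ndufv1, the flavin-binding core subunit of complex I that accepts electrons from NADH, has chr19:4012706-4013005 on the minus strand with 1 E-box, CACGTG, the motif bound by Myc and Max.
Fh1: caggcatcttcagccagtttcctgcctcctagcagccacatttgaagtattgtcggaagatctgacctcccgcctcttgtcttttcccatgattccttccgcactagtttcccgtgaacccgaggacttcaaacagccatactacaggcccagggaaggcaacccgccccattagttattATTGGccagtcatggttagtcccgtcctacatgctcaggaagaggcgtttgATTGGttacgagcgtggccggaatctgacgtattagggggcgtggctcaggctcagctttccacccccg
Uqcrc1: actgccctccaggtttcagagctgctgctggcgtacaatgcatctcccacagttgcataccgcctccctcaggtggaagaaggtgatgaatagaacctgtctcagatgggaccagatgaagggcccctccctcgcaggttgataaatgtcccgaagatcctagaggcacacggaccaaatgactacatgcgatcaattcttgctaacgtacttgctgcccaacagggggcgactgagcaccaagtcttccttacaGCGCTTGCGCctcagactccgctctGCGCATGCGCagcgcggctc
Ndufb8: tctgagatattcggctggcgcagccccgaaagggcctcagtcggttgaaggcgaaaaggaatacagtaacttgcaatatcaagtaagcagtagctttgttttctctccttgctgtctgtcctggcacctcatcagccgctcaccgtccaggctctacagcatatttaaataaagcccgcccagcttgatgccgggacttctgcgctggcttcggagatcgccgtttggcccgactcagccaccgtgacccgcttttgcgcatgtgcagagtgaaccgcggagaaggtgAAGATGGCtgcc
Ndufv1: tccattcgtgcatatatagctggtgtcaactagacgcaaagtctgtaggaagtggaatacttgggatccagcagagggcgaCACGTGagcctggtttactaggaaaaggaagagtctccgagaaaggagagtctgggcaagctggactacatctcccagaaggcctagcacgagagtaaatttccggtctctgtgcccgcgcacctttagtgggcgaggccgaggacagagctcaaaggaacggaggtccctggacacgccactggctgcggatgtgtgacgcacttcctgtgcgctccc
Of the 33 genes, 26 had a promoter window in the RefSeq table. The E-box CACGTG occurred in at least 1 window of 2 of these 26 genes (7.69%), against 8.09% of all 27025 genes with a window. The NRF1 core occurred in 4 (15.4%) against 5.19%, and the ETS core CCGGAAG in 4 (15.4%) against 9.93%. The YY1 core occurred in 3 (11.5%) against 3.19%, the ERR half-site AAGGTCA in 2 (7.69%) against 5.38%, and CCAAT in 8 (30.8%) against 41.1%. Over all 32851 windows the shares were 7.15%, 4.60%, 8.86%, 2.75%, 4.72% and 37.4% in the same order. Both strands were searched, and a match is a description of these letters only. Among the genes that rose at day 5 of LY294002, Uqcrfs1, Cox7a2, Suclg1 and Ndufb5 held none of the 6 motifs in their windows. The same held for Cox5b, which fell, and for Cox5a, Mdh2, Ndufa10, Ndufa4 and Ndufv2, which were not called. A link between motifs and direction was not tested.

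Pou5f1, Nanog, Sox2, Sall4 and Zfp42, markers of embryonic stem cells, stood at 11.61 or above on all 18 arrays. Of 6 fibroblast markers, Col3a1, Postn and Lum lay below the level filter of 4.64 on every array, Col1a1 was above it on 1 array, Col1a2 on 14 and Thy1 on 18. Max stood between 6.33 and 7.18 in the Max-null lines, treated or not, against 8.21 to 8.71 in the other lines of the same array set, and it was 7.18 at day 6 of Dox against 7.09 without Dox. Myc was 7.51 and 6.99 in the untreated wild-type and T58A c-Myc lines, against 7.43 in untreated parental replicate 2, and Pik3ca was 8.82 in the untreated p110 alpha line against 8.50 in the untreated Max-null line. Whether these probe sets read the introduced RNAs is not given in the sources used here, so lines are called by their labels. Array medians were 5.03 to 5.05 for parental replicate 1 and 2i (4 arrays) and 5.31 to 5.52 for the remaining 14, and levels are compared only within each set. In bulk RNA, fewer cells of a type and less RNA per cell cannot be told apart.

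All 32 genes were well expressed, with a lowest value on any array of 8.11. Over the 14 arrays of one set, the range of a gene, its highest minus its lowest log2 level, had a median of 0.64 for the 32 genes, against 1.07 for 14066 genes above the filter. A range of at least 2-fold was seen for 6 of the 32 genes (18.8%), against 54.6% of the 14066. The 14066 genes were not matched to the 32 genes in level. Whether the difference in range goes with level was therefore not tested. Among the 32, the narrowest ranges were 0.30 for the complex IV subunit Cox5b and 0.31 for the complex III core protein Uqcrc2. Ndufa9 and Cox5a followed with 0.38 each. The widest were Cox7a2 with 1.49, Fh1 with 1.13, Idh3a with 1.08, Uqcrc1 with 1.05, Ndufa5 with 1.04 and Suclg1 with 1.00.

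**Figure D1:**
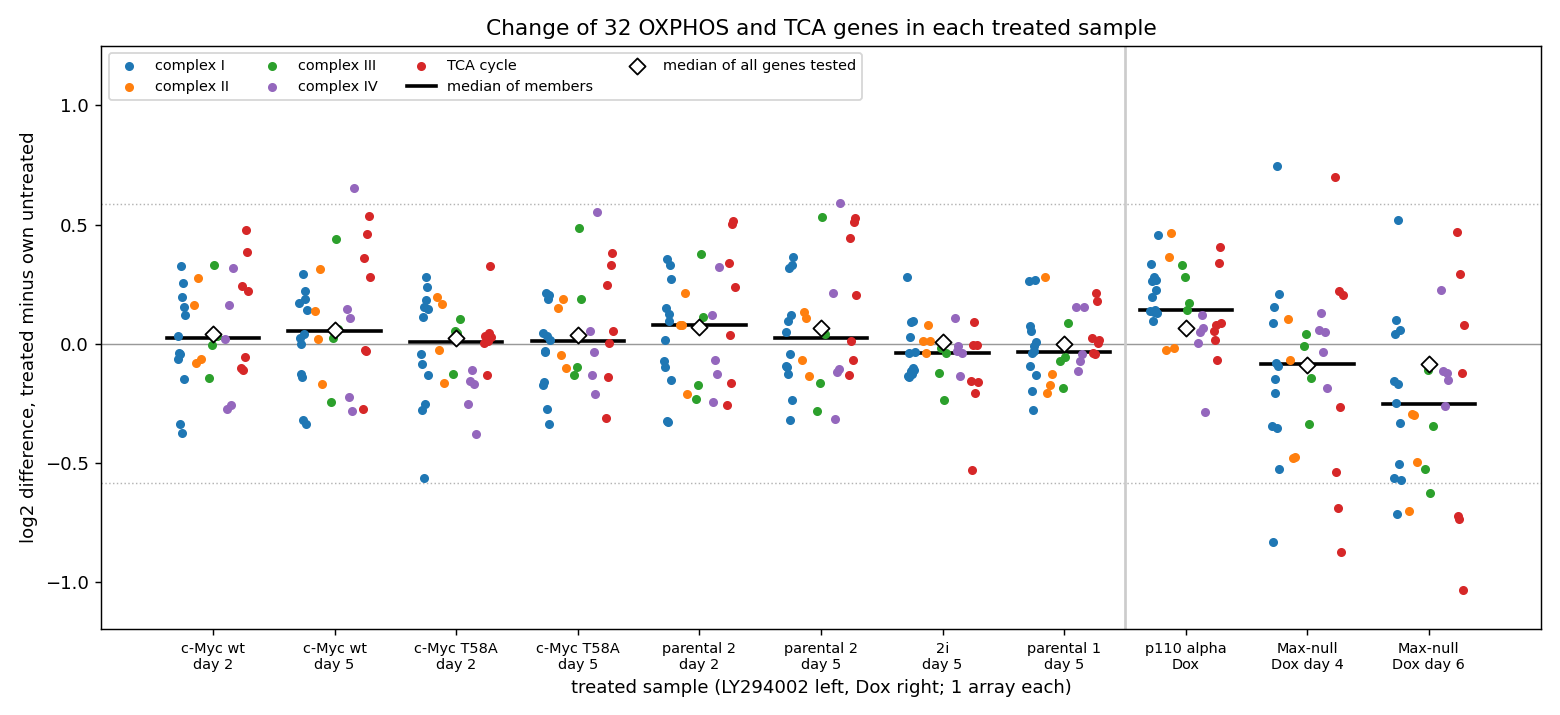
Each point is 1 gene in 1 treated sample, as the log2 difference from that sample's own untreated sample (y axis), coloured by complex; black bars are medians of the 32 genes, diamonds medians of all genes tested, and dotted lines mark 1.5-fold. The spread is widest in the plain Max-null line under Dox, from -1.03 to 0.74, and the p110 alpha line has 28 of 32 genes above 0.

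With LY294002, respiratory chain and TCA genes shifted in both directions, with fitted mean changes of up to 1.52-fold. In the 3 serum lines measured at both days (9 samples, line as a block), 7 of the 32 genes passed the test at day 2, 4 higher and 3 lower, where 30.5% of 13420 genes were called, 18.3% higher and 12.3% lower. At day 5, 12 of the 32 passed, 7 higher and 5 lower, where 44.1% of genes were called, 25.7% higher and 18.5% lower. The called shares of 21.9% at day 2 and 37.5% at day 5 lay below those over all genes, so the count alone is not a result about these genes. The median log2 change was -0.01 at day 2 and 0.03 at day 5, against 0.04 and 0.05 over all genes. The test was limma with Benjamini-Hochberg adjustment over all genes and a threshold of 0.05, and it measures only the spread between these arrays. In the same limma fit without the wild-type c-Myc line, no gene of the 32 passed at day 2, and only Uqcrfs1 and Fh1 at day 5. Without parental replicate 2, 3 passed at day 2 and 8 at day 5, and without T58A, 7 passed at each day. Calls over all genes fell as well when a line was left out. They went from 4099 to between 1010 and 3119 at day 2, and from 5922 to between 2881 and 4914 at day 5. The loss of calls is therefore not a result about the 32 genes. Nanog and Zfp42 fell at both days, to a log2 change of -0.35 and -0.64 at day 5; their part in these changes was not tested.

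Of complex I, Ndufb5 and Ndufs4 rose, while Ndufb8, Ndufv1 and, at day 2 only by the test, Ndufb3 fell. Ndufb8 stood at 12.00 untreated, 11.62 at day 2 and 11.68 at day 5 in the wild-type c-Myc line. It stood at 12.02, 11.77 and 11.75 at these times in T58A, and at 12.03, 11.71 and 11.71 in parental replicate 2. Every treated array of these lines lay below every untreated one, and the fall, of -0.32 at day 2 (SE 0.07, adjusted p = 0.0105) and -0.31 at day 5 (adjusted p = 0.00779), did not grow between the days. Parental replicate 1 gave 11.67 at day 5 against 11.94 untreated, whereas the 2i cells gave 12.03 at day 5 against 11.94 untreated. A second, dim probe set of Ndufb8, with a mean level of 5.08, had a mean day 5 change of -0.66.

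Ndufv1 was 11.79 untreated, 11.64 at day 2 and 11.46 at day 5 in the wild-type c-Myc line. In T58A it was 11.87, 11.73 and 11.53, and in parental replicate 2 it was 11.59, 11.43 and 11.35. Each line went down at each step, and the gene passed at day 5 (-0.30, SE 0.07, adjusted p = 0.00837) but not at day 2 (-0.14, adjusted p = 0.143). Ndufb3, another accessory subunit of the membrane arm, changed by -0.41 at day 2 (adjusted p = 0.0115), with -0.34, -0.56 and -0.32 in the wild-type c-Myc, T58A and parental lines. At day 5 its changes were -0.14, -0.04 and -0.13, and the difference between the days was 0.31 (adjusted p = 0.0976).

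Ndufb5 and Ndufs4, accessory subunits of the membrane and peripheral arms, passed at both days with day 5 changes of 0.27 (SE 0.07, adjusted p = 0.0166) and 0.25 (SE 0.07, adjusted p = 0.0220). Ndufb5 changed by 0.29, 0.21 and 0.32 at day 5 in the wild-type c-Myc, T58A and parental replicate 2 lines, and by -0.04 in parental replicate 1. Ndufs4 changed by 0.22, 0.21 and 0.33 in the same lines and by 0.27 in replicate 1. Loss of human NDUFS4 or NDUFV1 is a known cause of complex I deficiency. The other 7 complex I genes did not pass at either day, and their day 5 changes ran from -0.13 for Ndufa9 to 0.17 for Ndufv2 and 0.17 for Ndufs3.

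None of the 4 complex II genes passed at either day. Their day 5 changes lay between -0.14 for Sdhd and 0.20 for Sdhc, the membrane anchors of succinate dehydrogenase. Sdhc came nearest, with adjusted p = 0.0548 at day 2 and 0.0545 at day 5. The flavoprotein Sdha and the iron-sulfur subunit Sdhb had changes of mixed sign over the lines, such as -0.07 for Sdha in parental replicate 2 and 0.28 in replicate 1. A second probe set of Sdha, with a mean level of 10.83, had mean changes of 0.36 at day 2 and 0.35 at day 5. The probe set used gave 0.14 and 0.07, so the size for Sdha depends on the probe set.

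In complex III, the Rieske iron-sulfur protein and a core protein moved oppositely. Uqcrfs1, the Rieske protein that receives electrons from ubiquinol, was 10.84 untreated, 11.17 at day 2 and 11.28 at day 5 in the wild-type c-Myc line. It was 10.90, 10.95 and 11.39 in T58A, and 10.62, 11.00 and 11.15 in parental replicate 2. All 3 day 5 values lay above all 3 untreated values, and the gene rose by 0.49 at day 5 (SE 0.09, 1.40-fold, adjusted p = 0.00386). Parental replicate 1 did not share this, with 10.95 at day 5 against 11.01 untreated, and the 2i cells had 10.81 at day 5 against 11.04 untreated. Uqcrc1 fell by 0.22 at day 5 (SE 0.07, adjusted p = 0.0343), to 11.61, 11.79 and 11.45 in the wild-type c-Myc, T58A and parental replicate 2 lines, against 11.86, 11.92 and 11.73 untreated. These groups overlapped, since 11.79 exceeded 11.73. Uqcrc2 and Cyc1, the cytochrome c1 subunit, did not pass at either day.

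In complex IV, Cox7a2 rose at day 5 while Cox4i1 and Cox5b fell slightly. Cox7a2, the ubiquitous isoform of a small structural subunit, was 12.21 untreated, 12.52 at day 2 and 12.86 at day 5 in the wild-type c-Myc line. It was 12.38, 12.00 and 12.93 in T58A, and 12.28, 12.60 and 12.87 in parental replicate 2. The day 2 value of T58A was the lowest of the 9, whereas all 3 day 5 values lay above the other 6, and the day 5 change of 0.60 (SE 0.15, 1.52-fold, adjusted p = 0.0132) was the widest of the 32 genes. In parental replicate 1 its change was 0.15, and in 2i it was -0.04. Its second probe set had a mean day 5 change of 0.50. Cox4i1 changed by -0.22 (SE 0.07, adjusted p = 0.0357) and Cox5b by -0.20 (SE 0.07, adjusted p = 0.0495) at day 5, both near the threshold. Cox5a and Ndufa4, a subunit first assigned to complex I, did not pass at either day.

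Of the 7 TCA genes, 3 rose and none fell at day 5 by limma, where 25.7% of all genes rose and 18.5% fell. An unadjusted limma p under 0.05 was found for 5 of the 7, and for at least the 44.1% of all genes called after adjustment. Without parental replicate 2, 3 rose and Cs fell, and without the wild-type c-Myc line 1 rose. Fh1, which hydrates fumarate to malate, was 10.97 untreated, 11.35 at day 2 and 11.50 at day 5 in the wild-type c-Myc line. It was 11.14, 11.47 and 11.52 in T58A, and 10.78, 11.30 and 11.31 in parental replicate 2. All 6 treated values lay above the 3 untreated ones, and Fh1 had the smallest adjusted p of the 32 genes at both days: 0.41 at day 2 (SE 0.07, adjusted p = 0.00611) and 0.48 at day 5 (SE 0.07, 1.40-fold, adjusted p = 0.00173). Replicate 1 and the 2i cells did not share the change. Fh1 was 10.77 at day 5 against 10.76 untreated in parental replicate 1, and 10.76 at day 5 against 10.76 untreated in 2i.

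Suclg1, the alpha subunit of succinyl-CoA ligase, was 9.59 untreated, 10.07 at day 2 and 10.05 at day 5 in the wild-type c-Myc line. It was 9.83, 9.88 and 10.16 in T58A, and 9.33, 9.84 and 9.85 in parental replicate 2. It rose by 0.34 at day 2 (SE 0.10, adjusted p = 0.0373) and by 0.44 at day 5 (SE 0.10, adjusted p = 0.0101), and was 9.71 at day 5 against 9.53 untreated in parental replicate 1. Idh3a, the catalytic subunit of NAD-dependent isocitrate dehydrogenase, rose by 0.35 at day 5 (SE 0.08, adjusted p = 0.00949), with changes of 0.36, 0.25 and 0.44 in the wild-type c-Myc, T58A and parental replicate 2 lines. In replicate 1 its change was -0.04. Citrate synthase (Cs) changed by -0.24 at day 5 (adjusted p = 0.0705), but the dimmest of its 3 probe sets had a mean change of 0.21. Idh3b, Ogdh and Mdh2, which encode a regulatory subunit of isocitrate dehydrogenase, the first enzyme of the 2-oxoglutarate dehydrogenase complex and mitochondrial malate dehydrogenase, did not pass at either day.

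**Figure D2:**
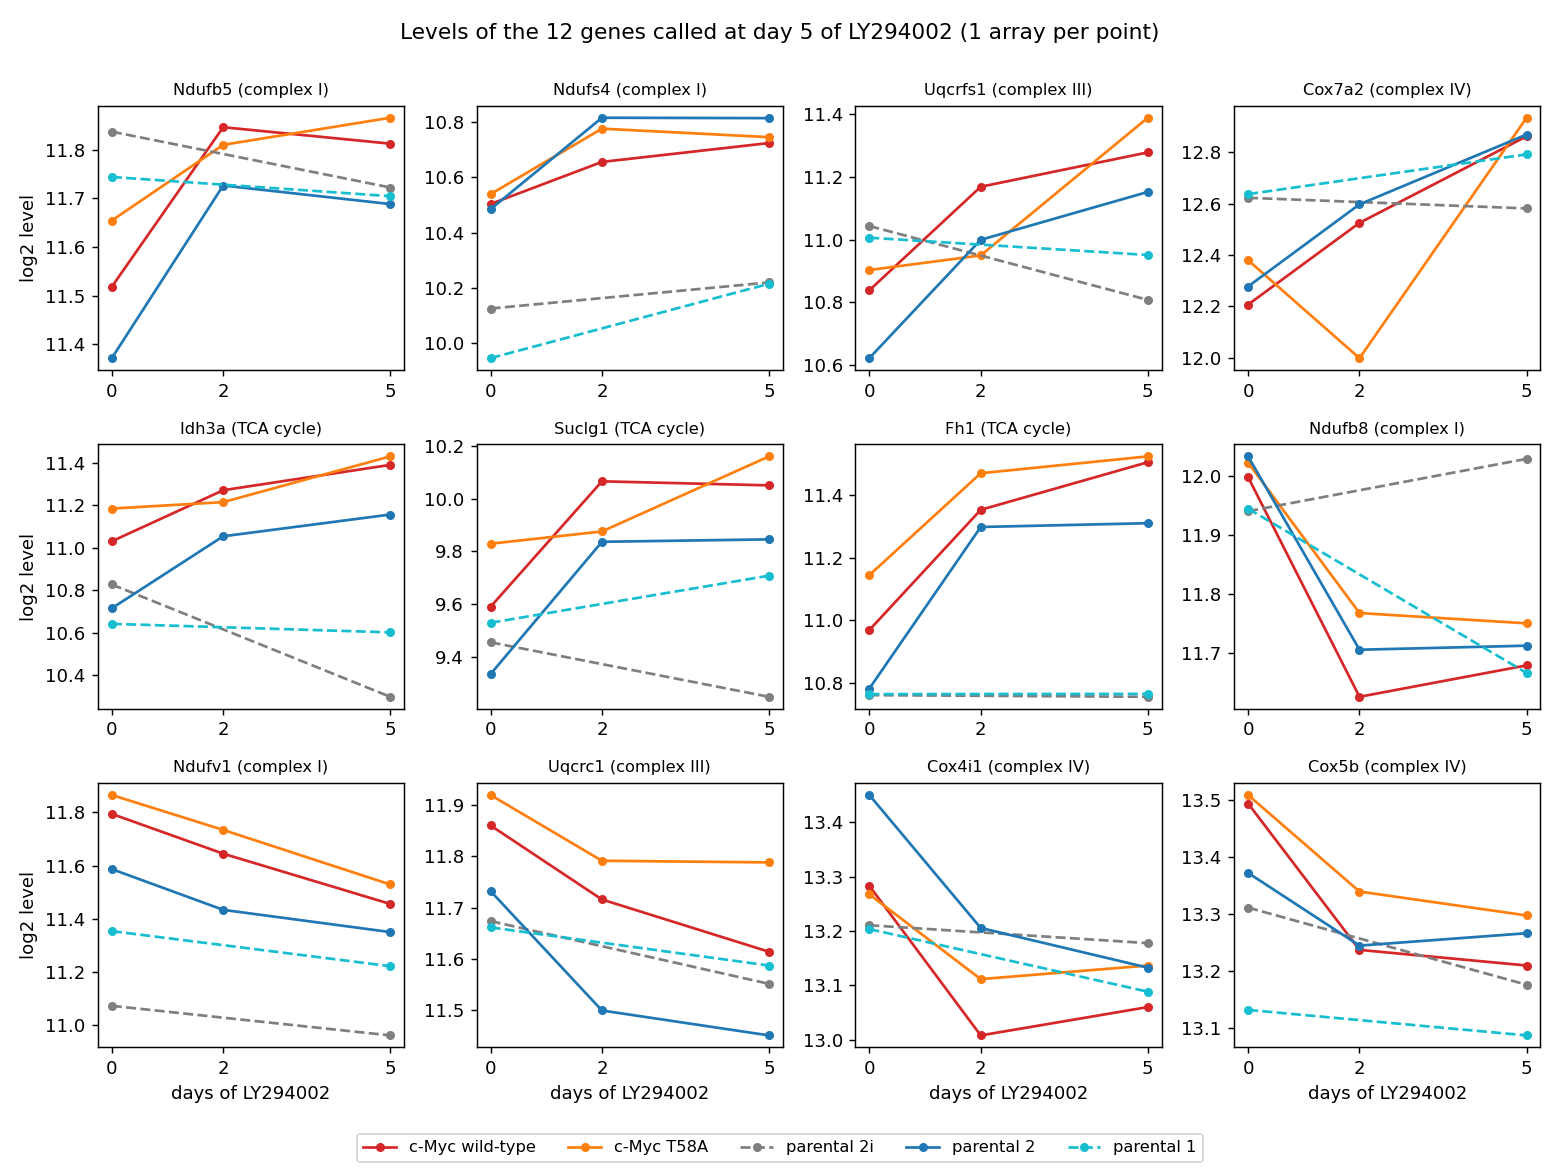
The log2 level (y axis) of the 12 genes that passed at day 5 is plotted against days of LY294002 (x axis), 1 array per point, with solid lines for the 9 samples of the fit and dashed lines for the 2 pairs with lower array medians. Fh1 goes up in the 3 solid lines and is level, at 10.76 to 10.77, in both dashed ones.

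No gene of the 32 differed between day 5 and day 2 by the limma test, where 2.35% of genes did, and 5 of the 32 had an unadjusted p under 0.05, against 23.6% of all genes. The nearest were Ndufb3, given above, and Cox7a2 with 0.51 (SE 0.15, adjusted p = 0.102).

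Whether overexpressed c-Myc alters the response was tested in 8 serum samples, 4 pairs of untreated and day 5 arrays with the pair as a block. The fit had 2 residual degrees of freedom. Its spread came from parental pairs of different array sets and from the wild-type and T58A lines. A lack of calls in it therefore does not show that the responses are alike. No gene of the 32 passed in the c-Myc lines, where 2.62% of 13404 genes did, or in the parental pairs, where 0.53% did; 7 and 2 of the 32 had an unadjusted p under 0.05, against 28.3% and 21.8% of all genes. The difference between c-Myc lines and parental pairs was called for none of the 13404 genes by limma, of which 457 (3.41%) had an unadjusted p under 0.05, none among the 32. The largest differences were 0.28 for Sdhc (SE 0.18) and -0.24 for Cs (SE 0.16), both with adjusted p = 0.996. Leaving out a parental pair changed these counts. Without replicate 1 or without replicate 2, the same 8 genes passed in the c-Myc lines. These were Cox7a2, Cs, Fh1, Idh3a, Ndufb8, Ndufv1, Suclg1 and Uqcrfs1. Leaving out a pair gave 0 to 5527 calls over all genes in the c-Myc lines, so the count of 8 alone is not a result about these genes. A lone parental pair has 1 array per condition. In replicate 2, Cox7a2 changed by 0.59, Fh1 by 0.53, Idh3a by 0.44, Suclg1 by 0.51 and Uqcrfs1 by 0.53. Over the 4 pairs, 9 of the 32 genes went up in every pair and 8 went down in every pair, against 3487 and 2801 of 14066 genes.

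Untreated c-Myc lines stood slightly above untreated parental replicate 2 for most of these genes, with 1 array each and no test. In T58A 28 of the 32 genes were higher, with a median difference of 0.18, where 58.5% of all genes were higher and their median was 0.07. In the wild-type c-Myc line 24 were higher, with a median of 0.11, where 56.3% of all genes were higher and their median was 0.04. Both differences use the same parental array. Suclg1 was 9.83 in T58A and 9.59 in the wild-type c-Myc line, against 9.33 in parental cells, and Idh3a was 11.18 and 11.03 against 10.72. Cox4i1 ran the other way, at 13.27 and 13.28 against 13.45. None of the 32 differed 1.5-fold in either line, where 10.2% of genes in T58A and 4.53% in the wild-type line did.

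In 2i the response to LY294002 was small, and more genes went down than up. More of the 32 genes also went down than up in serum parental replicate 1, so this direction was not particular to 2i. In the 2i pair, with 1 array each, 23 of the 32 genes lay below 0, against 49% of all genes. None passed 1.5-fold, where 8.7% of genes did. The median was -0.04, against 0.0048 over all genes. Idh3a stood lowest, at 10.30 with LY294002 against 10.83 without it, a change of -0.53, followed by Uqcrfs1 with -0.24 and Suclg1 with -0.21. The difference between the 2i pair and the 4 serum pairs, an added fit of 10 samples, was called for none of 13580 genes by limma, of which 1506 (11.1%) had an unadjusted p under 0.05. Of the 32 genes, Idh3a (-0.78, SE 0.23, adjusted p = 0.417) and Suclg1 (-0.58, SE 0.20, adjusted p = 0.428) had an unadjusted p under 0.05. Without parental replicate 1, Idh3a and Uqcrfs1 passed, but that replicate is the only serum pair of the same array set as 2i, so without it medium and array set cannot be told apart. In replicate 1 itself these genes changed by -0.04 and -0.06.

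Untreated cells in 2i and in serum, replicate 1, differed by 1.5-fold in 1 gene of the 32, where 15.8% of genes did. Cs, the enzyme of the entry step of the cycle, was 11.80 in 2i against 11.17 in serum, a difference of 0.63, and no gene passed 1.5-fold when all probe sets of a gene were averaged. Sdha and Mdh2 were each 0.30 higher in 2i, while Sdhc was 9.41 in 2i against 9.92 in serum, Ndufb3 9.86 against 10.29 and Ndufv1 11.07 against 11.35.

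The comparison of Dox with and without p110 alpha showed most of these genes slightly higher with Dox in the p110 alpha line, and a majority lower in the plain Max-null line, on 1 array per condition. In the p110 alpha line 28 of 32 genes were above their untreated value, where 60.3% of all genes were, with a median of 0.14 against 0.07 over all genes. None reached 1.5-fold, where 8.45% of genes did. In the Max-null line 20 of 32 were below at day 4, where 56.7% of all genes were, and 24 at day 6, where 53.8% were. The medians were -0.09 at day 4 and -0.26 at day 6, against -0.09 at each day over all genes. At day 4, 2 genes were 1.5-fold higher and 3 lower, where 33.9% of genes passed, 11.7% higher and 22.2% lower. At day 6 none was higher and 6 were lower, where 49.7% passed, 21% higher and 28.7% lower.

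The lower values in the Max-null line depended on how arrays were scaled. The SD over genes was 2.67 on the untreated Max-null array, 2.57 at day 4 and 2.42 at day 6, the narrowest of the 18, and 2.63 with Dox against 2.62 without it in the p110 alpha line. After quantile normalization, which gives all arrays the same spread, the median of the 32 genes was 0.0036 at day 6, against 0.0067 over all genes, and 16 of 32 lay below 0. In the p110 alpha line the median stayed at 0.13 and 26 of 32 were above 0. The mean level of the 5 stem cell markers was 12.79 without Dox, 12.79 at day 4 and 12.31 at day 6 in the Max-null line, and 12.90 with Dox against 12.78 without it in the p110 alpha line; of the 6 fibroblast markers, 2 were above the filter without Dox, 2 at day 4 and 3 at day 6. The part of these shifts in the results was not tested.

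**Figure D3:**
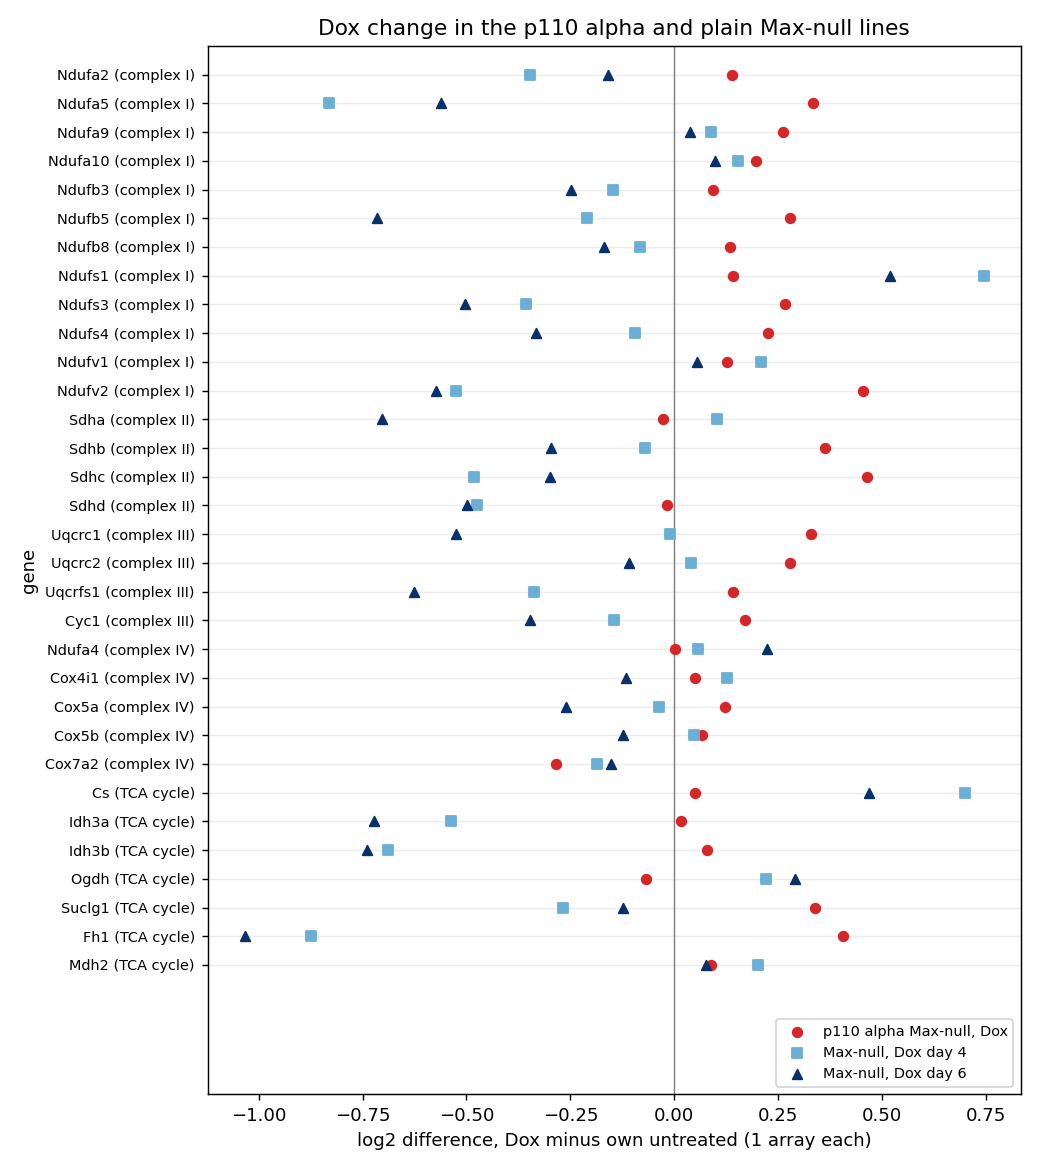
Each row is 1 gene grouped by complex, and each point is its log2 difference with Dox from the untreated sample of the same line (x axis, 1 array each): red circles for the p110 alpha Max-null line, squares and triangles for days 4 and 6 of the plain Max-null line. Fh1 is the farthest apart, at 0.41 against -0.87 and -1.03, while Ndufs1 and Cs are higher in the plain line.

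Fh1 showed the widest gap between the lines. It was 11.22 with Dox against 10.82 without it in the p110 alpha line, whereas in the Max-null line it was 11.43 without Dox, 10.55 at day 4 and 10.39 at day 6. The untreated lines thus differed by -0.61 before Dox, p110 alpha minus Max-null. Ndufa5, an accessory subunit of complex I, was 10.22 with Dox against 9.88 without it in the p110 alpha line, and 10.31, 9.48 and 9.75 at the 3 times in the Max-null line. Ndufv2, a core iron-sulfur subunit, was 12.24 against 11.78 in the p110 alpha line, and 12.07, 11.54 and 11.50 in the Max-null line. A second probe set of Ndufv2 changed by -1.39 and -2.17 at days 4 and 6, so the size depends on the probe set.

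All 12 complex I genes were above their untreated value in the p110 alpha line, by 0.09 to 0.45, and 8 of 12 were below it at each day in the Max-null line. Ndufs1, the largest iron-sulfur subunit, was an exception, at 10.60 without Dox, 11.34 at day 4 and 11.12 at day 6 in the Max-null line. In complex II, Sdhc was 9.44 with Dox against 8.98 without it in the p110 alpha line, and 9.87, 9.39 and 9.57 in the Max-null line, while Sdha was 11.40, 11.50 and 10.69 at the 3 times. All 4 complex III genes were above in the p110 alpha line and below at day 6 in the Max-null line, where Uqcrfs1 was 11.02 without Dox, 10.69 at day 4 and 10.40 at day 6. Changes of complex IV genes ran from -0.29 for Cox7a2 in the p110 alpha line to 0.22 for Ndufa4 at day 6. In the TCA cycle, Idh3b was 11.16 without Dox, 10.47 at day 4 and 10.42 at day 6 in the Max-null line, against a change of 0.08 in the p110 alpha line, and Cs ran the other way at 11.38, 12.08 and 11.85.

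Taking direction alone, 18 of 32 genes (56.3%) were above 0 in the p110 alpha line and below 0 at both Max-null days, against 30.6% of 14204 genes, and 1 (3.13%) had the reverse pattern, against 17.1%. After quantile normalization the first count was 10 of 32 (31.3%), against 26.1% of all genes, and after centring each array it was 19 (59.4%), against 36.2%. The difference between the lines was estimated in an added limma fit of the 5 samples that counted days 4 and 6 as replicates and had 1 residual degree of freedom. That degree of freedom is the gap between 2 time points, and the p110 alpha line has 1 array per condition, so the fit does not test a difference between the lines. It called 1.9% of 13534 genes and none of the 32. The nearest was Fh1 (1.36, SE 0.51, 2.57-fold, adjusted p = 0.204), the only gene of the 32 with an unadjusted p under 0.05, as 16.7% of all genes had. The Dox days of the p110 alpha line are not given, so times were not matched. Dox over both lines together, another fit of the 5 samples with line as a block, called none of 13534 genes by limma, of which 701 (5.18%) had an unadjusted p under 0.05, none among the 32. That fit gave both lines a common Dox change and counted days 4 and 6 as replicates. A difference between the lines enters its spread, so it cannot show an absence of change in either line.

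Without Dox, 26 of the 32 genes were lower in the p110 alpha line than in the Max-null line, where 55.4% of all genes were, with a median of -0.17 against -0.06. Cox7a2 was 11.73 in the p110 alpha line against 12.85 in the Max-null line, a difference of -1.12. Sdhc differed by -0.89 and Fh1 by -0.61, and these 3 were the genes past 1.5-fold, where 20% of all genes were. All 7 TCA genes and all 4 complex III genes were lower. The Dox values of the p110 alpha line therefore started from lower levels for Fh1 and Sdhc, and with Dox the line stood at 11.22 for Fh1, between the untreated and treated Max-null values.

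Other genes of the same pathways were taken from lists by name. Among 20 further complex I subunits, 10 rose and 1 fell at day 5 of LY294002 by the 9-sample limma fit, with a median change of 0.22 against 0.05 over all genes. The shares over all genes were 25.7% higher and 18.5% lower, 44.1% in all, and several of the counts that follow lie at or below them. Leaving out a line lowered the calls over all genes too, as given above. Ndufc1 changed by 0.65, Ndufb10 by 0.61 and Ndufs7, a core subunit, by 0.48, while Ndufb11 changed by -0.53. Without the wild-type c-Myc line 2 rose and 1 fell, and without parental replicate 2, 6 rose and 1 fell. Of 6 other genes of complex III and cytochrome c, Uqcr11 (0.74) and Uqcrh (0.75) rose and Uqcrq fell (-0.80). Of 6 other complex IV genes, Cox7a2l (0.72), which joins complexes III and IV, and Cox7c (0.58) rose. Of 15 complex V genes, 4 rose, with Atp5d at 0.48 and Atp5g2 at 0.35, and Atp5g1 fell (-0.36); without the wild-type c-Myc line none passed, and without parental replicate 2, 1 rose and 1 fell. Of 8 alternative isoforms 3 rose: Cox6b2 (1.23), known from testis, Cox7a1 (0.59), known from heart and muscle, and Ndufa4l2 (0.52), known from hypoxic cells. Without the wild-type c-Myc line 1 did. The 9-sample fit used for these lists left out parental replicate 1. In the fit of 8 serum samples, which included it, the parental changes were 0.78 for Cox6b2, -0.11 for Cox7a1 and 0.02 for Ndufa4l2. Of 5 other TCA genes Suclg2 rose by 0.85 (adjusted p = 0.00358), the GTP-forming beta subunit that pairs with Suclg1.

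Of 12 genes of pyruvate entry, lactate dehydrogenases included, 6 rose and 4 fell at each day, against 30.5% of all genes called at day 2 and 44.1% at day 5. Without the wild-type c-Myc line 4 rose and none fell at day 2, and 6 rose and 1 fell at day 5. The pyruvate dehydrogenase kinases Pdk4, Pdk3 and Pdk1, which inhibit the complex, rose by 1.48, 1.06 and 0.81 at day 5, and the opposing phosphatase Pdp1 rose by 1.00. Parental replicate 1 had 3 of the 12 above 0, where 49.7% of all genes were, and a median of -0.11. Of 10 genes of anaplerosis and cytosolic counterparts 5 rose and 4 fell, with mitochondrial malic enzyme Me2 at 0.72 and the aminotransferase Got2 at 0.58, and with the cytosolic Me1 at -0.58 and Got1 at -0.54; without the wild-type c-Myc line 3 rose and 2 fell. Of 20 assembly factors 9 rose and 2 fell; Nubpl, which delivers iron-sulfur clusters to complex I, changed by 0.89 and Sco1, a copper chaperone of complex IV, by -0.91. Without the wild-type c-Myc line 4 assembly factors rose and 1 fell, without parental replicate 2, 4 rose and 2 fell, and without T58A, 5 rose and 2 fell. Of 12 regulators of mitochondrial biogenesis 3 rose and 4 fell; without the wild-type c-Myc line 1 rose and 2 fell, and without parental replicate 2, 2 rose and 2 fell. The coactivator Ppargc1b changed by -1.84 and Esrrb, a nuclear receptor of naive cells, by -0.71, whereas Tfb1m and Tfam changed by 0.72 and 0.32. Of 76 mitochondrial ribosomal protein genes 38 rose and 5 fell, with a median of 0.21, and without the wild-type c-Myc line 14 rose and none fell. ND5, encoded in the mitochondrial genome, fell by 0.70 (adjusted p = 0.00170).

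**Figure D4:**
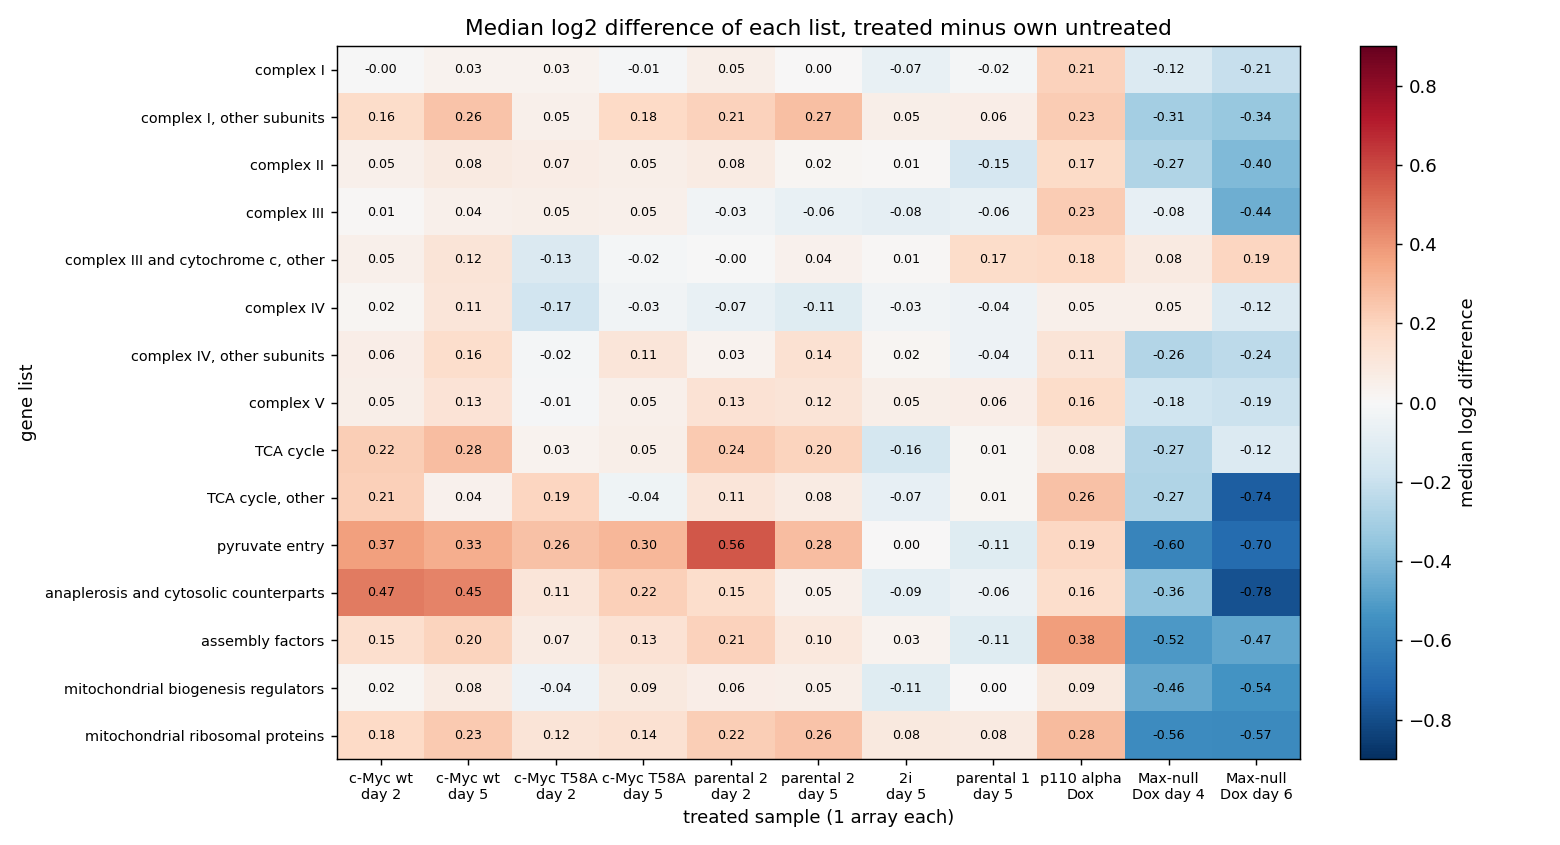
Each cell gives the median log2 difference of a gene list (rows) in a treated sample from its own untreated sample (columns, 1 array each), red for higher and blue for lower. Mitochondrial ribosomal proteins are at 0.28 in the p110 alpha line under Dox and at -0.56 and -0.57 in the Max-null line.

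Under Dox, 71 of 76 mitochondrial ribosomal protein genes were above 0 in the p110 alpha line, where 60.3% of all genes were. In the Max-null line 68 of 76 were below 0 at day 4, where 56.7% of all genes were, and 69 at day 6, where 53.8% were. After quantile normalization 71 were above 0 in the p110 alpha line, and 64 below 0 at day 4 and 50 at day 6 in the Max-null line, with medians of 0.25, -0.45 and -0.31. How these shifts compare with those of the 32 genes was not tested. ND5 ran the other way, with changes of 1.23 at day 4 and 1.30 at day 6. The assembly factor Nubpl changed by 1.15 with Dox in the p110 alpha line, against -1.35 at day 4 and -1.41 at day 6 in the Max-null line.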

How the data were processed

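The authors deposited 1 table of log2 expression values for 45101 probe sets on 18 arrays; per the submitters' processing notes it was made with RMA in affy, whose versions are not given in the sources used here. Array medians fell into 2 sets, and separate RMA runs were inferred from that alone. Probe sets were named through the platform annotation, 34945 with 1 gene, 932 with several and 9160 with none. Each gene kept the probe set of highest mean level (18193 genes), and fits kept genes above 4.64, the 40th percentile, in at least 2 samples (in 1 sample for single pairs). Tests used limma 3.58.1 in R 4.3.3 on log2 values with Benjamini-Hochberg adjustment at 0.05, with the line or pair as a block, and were checked on simulated data; pairs with 1 array each got no test and a 1.5-fold limit. The fits of 2i minus serum pairs and of p110 alpha minus Max-null lines were added after seeing the data.

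The block follows the line or pair named in the labels. Over 13404 genes, the difference between parental replicates at day 5 and that in untreated cells correlated with r = 0.563, but these replicates also lie in different array sets, so this does not bear on the pairing; the T58A minus wild-type difference gave r = 0.172. Members and gene lists were chosen with earlier results of these data known. All members may be named, with the 3 largest changes in each direction and those called given in detail, and up to 4 genes of each other list. The number of arrays limits the precision.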

Additional observations from a re-analysis of the deposited data

Results flagged for a closer look

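Under Dox, 14 lists had a median change above 0 in the p110 alpha line and below 0 at both days in the Max-null line, on 1 array per condition. These differences between lists were not tested. The median over all genes had the same signs, at 0.07 in the p110 alpha line and -0.09 at each day in the Max-null line. The sign alone therefore does not set these lists apart. Over all 32 genes the median was 0.14 in the p110 alpha line, against -0.09 at day 4 and -0.26 at day 6 in the Max-null line. By role, complex I had 0.21 against -0.12 and -0.21, complex II 0.17 against -0.27 and -0.40, complex III 0.23 against -0.08 and -0.44, and the TCA cycle 0.08 against -0.27 and -0.12. The day 6 median of the 32 genes was 0.0036 after quantile normalization, so the sign at day 6 is not fixed across scalings.

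Among the other lists, further complex I subunits had 0.23 in the p110 alpha line against -0.31 and -0.34 in the Max-null line, further complex IV subunits 0.11 against -0.26 and -0.24, and complex V 0.16 against -0.18 and -0.19. Further TCA genes had 0.26 against -0.27 and -0.74, pyruvate entry 0.19 against -0.60 and -0.70, and anaplerosis 0.16 against -0.36 and -0.78. Assembly factors had 0.38 against -0.52 and -0.47, regulators of mitochondrial biogenesis 0.0875 against -0.46 and -0.54, and mitochondrial ribosomal proteins 0.28 against -0.56 and -0.57.

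At day 5 of LY294002 the 2i pair and the 4 serum pairs had medians of opposite sign for the TCA cycle, at -0.16 in 2i against 0.01 to 0.28 in serum. The same held for regulators of mitochondrial biogenesis, at -0.11 in 2i against 0.0037 to 0.085 in serum. These differences were not tested at the level of the list.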

How the results depend on the processing

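Direction was compared only for the 19 single-gene results called in the main fits, and none of these changed direction under the alternatives run. Over all alternatives, 150 of these comparisons kept direction and call and 59 lost the call. Fh1 and Uqcrfs1 at day 5 kept their call in the 11 alternatives run. Each has 1 probe set, so averaging probe sets or taking the second highest left their own values unchanged. None of these alternatives included parental replicate 1, where their day 5 changes were 0.0007 and -0.06. With no replicate block, that is without pairing arrays by line, members called numbered 3 at day 2 and 6 at day 5 (all genes 2663 at day 2; 57 between days, 0 in parental pairs and 44 in c-Myc lines). At day 2, 11 members passed with the second highest probe set, 14 with a trended robust prior and 13 at a threshold of 0.1, which gave 1 between days and 1 in c-Myc lines. The main fit called 30.5% of all genes at day 2. Day 2 counts over all genes at these settings are not set beside the members here, so the higher counts are not a result about them. Leaving out 1 line or pair gave 0 to 7 members at day 2, 2 to 8 at day 5, 0 to 5 in parental pairs, 0 to 8 in c-Myc lines and 0 to 2 for 2i minus serum. Over all genes it gave 1010 to 3119 calls at day 2, 2881 to 4914 at day 5, 0 to 877 between days, 0 to 4711 in parental pairs, 0 to 5527 in c-Myc lines, 0 to 1340 for their difference, 0 to 1455 for Dox and 0 to 1346 for 2i minus serum. The 60th percentile filter gave 525 calls between days and 533 in c-Myc lines, the trended prior 713 and 536, and the second probe set 132 in parental pairs. A threshold of 0.1 gave 1165 between days, 455 in parental pairs and 1815 in c-Myc lines. For the p110 alpha minus Max-null fit, 139 genes passed with no filter, 471 after centring, 87 after quantile normalization and 597 at 0.1. In single pairs a 2-fold limit left 0 members at Max-null day 4, 1 at day 6, 0 for 2i minus serum and 1 for p110 alpha minus Max-null; centring gave 11 at day 6 and 5 for p110 alpha minus Max-null, and averaging probe sets gave 0 for 2i minus serum. The day 6 median was -0.42 after centring and 0.0036 after quantile normalization; the causes of these shifts were not tested.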

Other observations

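Probe sets of the same gene did not always move together. Of the 19 genes with several probe sets, 4 had day 5 changes of both signs among probe sets above the level filter. Cox7a2 had a second probe set that changed by -0.44 with Dox in the p110 alpha line, and by 0.19 at day 4 and 0.15 at day 6 in the Max-null line, where the main probe set changed by -0.19 and -0.15. For Idh3a the 3 brightest of its probe sets changed by 0.35, 0.43 and 0.47 on average at day 5 of LY294002, and by -0.72, -0.96 and -1.09 at day 6 of Dox in the Max-null line. The dimmest, with a mean level of 5.41, changed by -0.20 at that day.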
